A study of Drosophila melanogaster with 2 samples.

Results

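The regions described here were binding peaks of the transcription factor fd96Cb that lay just downstream of a transcription start site (TSS), which is the stretch a polymerase has begun to transcribe. A peak belonged to the class when its summit, the base of highest signal inside the called interval, lay 0 to 1000 bp downstream of the nearest TSS of a protein-coding transcript. Summits between a minus-strand TSS on the left and a plus-strand TSS on the right at most 1000 bp apart were set aside as divergent, because they lie upstream of a gene on each side. The starting set was the peaks that passed the authors' irreproducible discovery rate (IDR) threshold, which keeps peaks ranked alike in both replicates. Of these, 437 met the rule (7.61%, 95% Wilson interval 6.95 to 8.32%), and the rest were 1302 upstream peaks, 772 between divergent starts and 3232 elsewhere. They were nearest to 425 distinct TSSs of 411 genes, and their median offset from the TSS was 559 bp. Of 523 summits 0 to 1000 bp downstream of the nearest TSS, 86 also lay between such a pair of starts and were set aside. The class set against the members held the 1302 peaks whose summit lay 1 to 1000 bp upstream of the nearest TSS at a promoter that is not part of a close divergent pair.

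The assay was chromatin immunoprecipitation with sequencing (ChIP-seq) in whole Drosophila melanogaster embryos collected 0 to 24 hours after laying, with 2 biological replicates, numbered 2 and 3, that form a single group. Both came from one transgenic line in which fd96Cb carries a GFP tag at its C terminus. The pulled-down protein was the tagged copy, taken with an antibody against GFP, although the antibody label names fd96Cb itself. Chromatin was sonicated to 200 to 800 bp. All cell types of the embryo and all stages of its first day were pooled, so a peak cannot be given to a cell type or a stage, and a weak peak in all cells cannot be told apart from a strong peak in a few. No untagged or input sample was analysed here, and the peak lists carry no read counts, so the depth behind a peak is unknown.

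fd96Cb belongs to the forkhead family, whose winged-helix domain binds short A/T-rich sites related to the letters GTAAACA, and several family members open or mark regulatory DNA in animals. Transcription factors commonly bind upstream of the TSS, where nucleosomes are depleted. The stretch after the TSS holds the 5′ untranslated region (5′ UTR), the splice site that ends the first exon and often the start of a long first intron. In flies, first introns are known for carrying enhancers and alternative promoters, while the start of the coding sequence is GC-rich in comparison.

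The bases under 5 of the strongest downstream summits are printed first, because the results below turn on where these windows lie in the gene and on how A/T-rich they are. Each is the 101 bp window centred on the summit, in the direction of the gene, 5′ to 3′, from the Release 6 (dm6) assembly. Capitals mark a match, on either strand, to the forkhead pattern, a set of 7-letter words given further on. CG9663, a predicted ABC transporter gene, had its summit 920 bp downstream of the TSS at chr2L:3302160-3302260, minus strand, in the first intron, and the window held 3 matches. CG9147 had its summit 21 bp downstream at chr2L:6066058-6066158, plus strand, in the 5′ UTR, and the window held no match. In ph-p, which encodes a subunit of Polycomb repressive complex PRC1, the window was 457 bp downstream at chrX:2137864-2137964, minus strand, in the 5′ UTR, with 1 match. In tank the window was 139 bp downstream at chr2L:4837810-4837910, minus strand, in the 5′ UTR, with no match. LPCAT, a lysophospholipid acyltransferase gene, was bound 693 bp downstream at chrX:9579244-9579344, minus strand, in the first intron, with no match.
CG9663: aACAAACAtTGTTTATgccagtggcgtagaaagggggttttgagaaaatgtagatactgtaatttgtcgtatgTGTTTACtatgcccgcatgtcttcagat
CG9147: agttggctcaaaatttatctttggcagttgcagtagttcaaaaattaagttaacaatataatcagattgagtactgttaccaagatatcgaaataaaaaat
ph-p: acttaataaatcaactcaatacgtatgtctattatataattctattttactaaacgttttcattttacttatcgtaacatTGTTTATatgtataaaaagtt
tank: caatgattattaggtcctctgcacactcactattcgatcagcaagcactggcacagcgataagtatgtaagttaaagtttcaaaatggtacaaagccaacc
LPCAT: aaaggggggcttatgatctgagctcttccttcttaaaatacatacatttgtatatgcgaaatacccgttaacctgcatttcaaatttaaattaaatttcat
The GC share of these windows was 38.6% for CG9663, 27.7% for CG9147, 19.8% for ph-p, 40.6% for tank and 31.7% for LPCAT. All 5 were below the mean of all protein-coding TSSs at the same offset, which ran between 42.9 and 46.5% for these offsets. For comparison, the strongest upstream peak of the whole set lay 95 bp upstream of CG14100 at chr3L:19590569-19590669, minus strand, with 30.7% GC and no match.
CG14100: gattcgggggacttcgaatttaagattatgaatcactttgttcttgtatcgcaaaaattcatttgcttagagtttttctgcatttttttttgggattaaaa

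IDR peaks lay just downstream of TSSs less often than weaker peaks did. No input or untagged sample was analysed, so how far the weaker peaks are binding or background was not tested. The downstream class held 7.61% of the IDR peaks, against 14.5% of the 23562 weaker peaks of the pooled list that overlap no IDR peak and 11.5% of all bases of the 6 chromosome arms. The difference between IDR and weaker peaks was -6.91 percentage points (95% interval -7.71 to -6.07, two-sided z test over peaks, adjusted p 4.12e-43 over 6 measures). Peaks are not replicates, so here and below the interval and p describe these peak lists and not the spread between embryos. Each replicate taken alone gave the same order. The strongest peaks of each replicate were taken up to the number in the IDR set. In replicate 2 the downstream share was 7.59% of these, against 12.1% of the rest of its list. In replicate 3 it was 7.94% of the strongest, against 17.2% of the rest.

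On the upstream side the order was the other way, with 22.7% of the IDR peaks against 12.2% of the weaker ones. Downstream peaks made up 25.1% of the IDR peaks on both sides, against 54.4% of the weaker peaks and 59.3% of the bases. With the strongest peaks of replicate 2 alone the figure was 25.1%, and with those of replicate 3 alone it was 25.8%. The downstream share was about level across the IDR set. In 5 equal bins from the strongest peaks to the weakest it was 7.57, 8.27, 7.14, 7.48 and 7.58%, while the upstream share was 31.4% in the strongest bin and between 19.8 and 21.1% in the other 4. Among the 100 strongest IDR peaks 9 were downstream and 37 upstream, and among the 1000 strongest 72 were downstream and 327 upstream.

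The downstream summits were not spread evenly over the 1000 bp. In steps of 100 bp from the TSS outwards the class held 60, 40, 23, 23, 39, 51, 47, 52, 46 and 56 peaks, so the count was lowest between 200 and 399 bp. Weaker peaks showed no such trough: they ran between 505 peaks in the first step and 258 in the last. As a share of its own list, the IDR set held 0.272 times the weaker share at 300 to 399 bp and 0.891 times at 900 to 1000 bp. On the other side of the TSS, the step 101 to 200 bp upstream held 321 IDR peaks, the most of any step, at 3.18 times the weaker share.

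**Figure D1:**
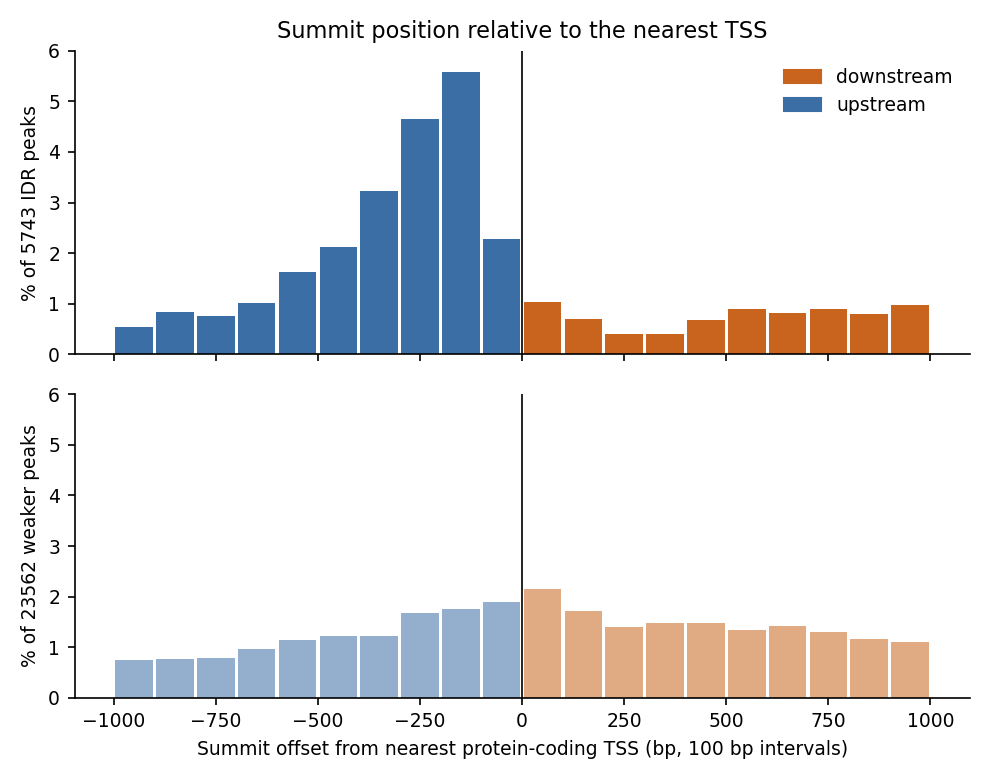
Share of all IDR peaks (upper panel) and of 23562 weaker peaks (lower panel) with a summit in each 100 bp interval around the nearest protein-coding TSS; divergent pairs are left out. Downstream IDR bars (orange) stay at or below 1.04%, with the lowest at 200 to 399 bp, while upstream bars (blue) reach 5.59%; weaker peaks lie between 0.738 and 2.14% on both sides.

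Distance from the TSS separated the members in several ways. Among the 100 peaks within 0 to 199 bp, 82.0% had their summit in the first exon of the transcript and 18.0% in its first intron. Among the 99 peaks at 600 to 799 bp, 2.02% were in the first exon and 89.9% in the first intron. Many of the nearest members also sat before another start. Within 0 to 199 bp, 70 of 100 lay within 1000 bp upstream of a second TSS, against 3 of 102 at 800 to 1000 bp. The class rule itself favours this fall, because a second TSS cannot lie closer to the summit than the nearest one. At 800 to 1000 bp a second TSS had to lie at least as far away as the first. Over the whole class 119 of 437 (27.2%) lay upstream of a second TSS. Of these, 62 were upstream of another TSS of the same gene, 56 of a gene on the opposite strand and 1 of another gene on the same strand. CG9147 is an example, since its summit lay 21 bp into the gene and 155 bp upstream of Fbw5, which runs the other way. The converse, an upstream peak within 1000 bp downstream of another TSS, held for 169 of the 1302 (13.0%). Of the 437 members, 7 had the start of a noncoding RNA gene within 200 bp.

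Most downstream summits fell in introns and almost none in coding sequence. Of the 437, 312 (71.4%) were in introns, 112 (25.6%) in a 5′ UTR, 4 (0.915%) in coding sequence, 3 in a 3′ UTR and 6 outside protein-coding transcripts, where a base counted as exonic if any protein-coding transcript has it in an exon. Intronic summits made up 71.4% of the members, against 29.7% of the 3422 weaker downstream peaks and 28.2% of the bases of the class. That difference between members and weaker peaks was 41.7 percentage points (95% interval 37.0 to 46.0, z test over peaks, adjusted p 3.27e-66 over 5 locations). Coding summits made up 0.915% of the members, against 39.1% of weaker peaks and 44.1% of bases, a difference of -38.2 points (95% interval -39.9 to -36.0, adjusted p 1.02e-55). The 5′ UTR shares, 25.6% of members and 991 of 3422 weaker peaks, differed by -3.33 points (95% interval -7.50 to 1.22, adjusted p 0.245). Coding and intronic shares had the same order on the upstream side, where no test was made. Of the 1302 upstream peaks, 3 (0.230%) were in coding sequence, against 7.37% of 2864 weaker upstream peaks. Introns held 41.3% of the upstream peaks, against 32.4% of the weaker upstream ones.

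First introns accounted for 297 of the members (68.0%), against 27.6% of the weaker downstream peaks. First exons held 109 members (24.9%), against 1610 of 3422 weaker peaks, and later exons held 7 (1.60%), against 20.7%. The preference for introns was present at each distance, at 17 of 100 members against 67 of 907 weaker peaks within 0 to 199 bp. It was 69.6% of members against 29.1% of weaker peaks at 200 to 399 bp, 86.7% against 35.6% at 400 to 599 bp, 97.0% against 42.9% at 600 to 799 bp and 87.3% against 45.2% at 800 to 1000 bp. Introns are A/T-rich, and base composition moved with location: among summits under 35% GC, 80.0% of 280 members and 68.2% of 528 weaker peaks were intronic, a difference of 11.8 points (95% interval 5.46 to 17.7, adjusted p 0.00178). At 35% GC or more it was 56.1% of 157 members and 22.7% of 2894 weaker peaks, a difference of 33.4 points (95% interval 25.4 to 41.1, adjusted p 5.93e-21). For coding sequence the difference was -43.9 points at 35% GC or more, and -1.92 points under 35% GC, where the test was missed (adjusted p 0.0658). The strongest downstream peaks of replicate 2 alone were 71.1% intronic, against 26.7% in the rest of its list, and those of replicate 3 were 66.2% intronic, against 32.6%.

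In 2 members the summit was in coding sequence of every transcript that overlaps it. One was 151 bp downstream of the TSS of Hakai, which encodes an E3 ubiquitin ligase, with a signal of 205 and a GC share of 69.3% in the summit window, the highest of any member. Its signal was 113 in replicate 2, and no peak of replicate 3 was matched to it. The other was 474 bp downstream of CG3919, with an IDR signal of 146, 42.0 in replicate 2 and 121 in replicate 3.

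**Figure D2:**
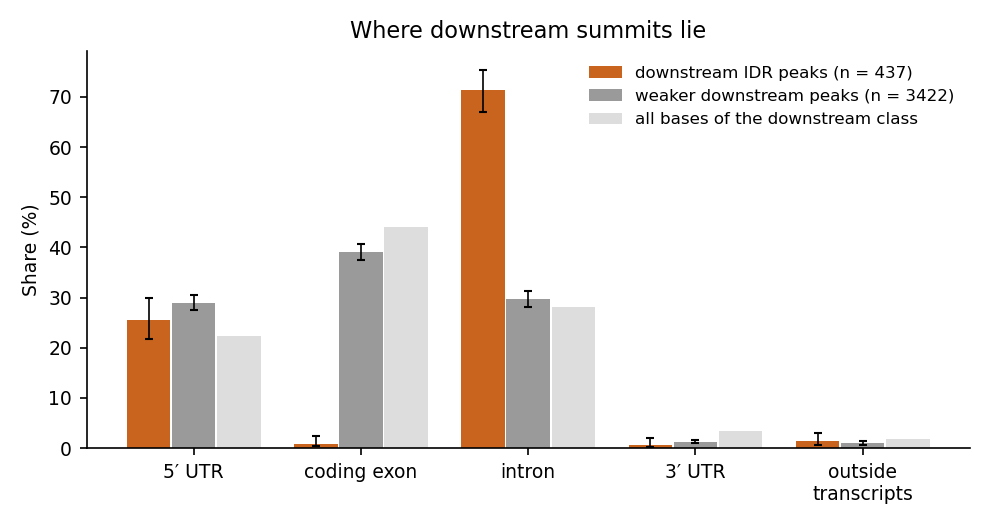
Share of summits by annotated location for 437 downstream IDR peaks (orange), 3422 weaker downstream peaks (dark grey) and all bases of the class (light grey); bars on the peaks are 95% Wilson intervals. Introns hold 71.4% of the IDR peaks against 29.7% of the weaker ones, and coding exons 0.915% against 39.1%.

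The summits were A/T-rich dips in GC-richer surroundings. GC within 50 bp of the summit averaged 32.7% ± 8.72 in downstream peaks (SD, n = 437) and 46.9% ± 10.5 in weaker downstream peaks (SD, n = 3422), a difference of -14.2 points (95% interval -15.1 to -13.4, z test, unadjusted p 1.60e-215). At 500 bp on either side of the downstream summits the mean GC was 43.6%, so the summit stood at -10.9 points relative to its flanks, and 84.2% of members were below theirs. Weaker downstream peaks stood at 3.60 points relative to their flanks, and 36.0% of them were below. Among members, GC ran from 10.9% at Hr78, which encodes a nuclear receptor, to the 69.3% at Hakai, and the middle of the class, its 10th to 90th percentiles, from 21.8 to 44.6%.

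Against the upstream class the raw difference in GC was small with windows of 1000 bp. Downstream peaks averaged 32.7% and upstream peaks 31.0% ± 8.25 (SD, n = 1302), a difference of 1.62 points (95% interval 0.690 to 2.55, z test, adjusted p 0.00195 over 6 measures). It was 1.01 points with only the most 5′ TSS of each gene (adjusted p 0.112) and 1.03 points without summits on the other side of another TSS (adjusted p 0.0922), so neither kept the call. Here and below, the most 5′ TSS setting drops inner TSSs, so a peak just before one can count as downstream. It compares 498 downstream with 899 upstream peaks, which are not the same classes. The raw difference was 4.11 points with a window of 500 bp (adjusted p 6.05e-09) and 2.72 points without replicate 3 (adjusted p 9.05e-08). The order was the other way when each summit was set against all protein-coding TSSs at the same offset: downstream summits stood at -12.5 points and upstream summits at -8.56 points, a difference of -3.90 points (95% interval -4.84 to -2.95, unadjusted p 5.71e-16), in a comparison added after the values had been seen. Against their own flanks the downstream dip was -10.9 points and the upstream dip -12.1 points, which differed by 1.19 points (95% interval -0.0173 to 2.39, adjusted p 0.0640), in the direction of the raw difference. The dips differed by 3.38 points with a window of 500 bp (adjusted p 0.000387), 1.88 without replicate 2 (adjusted p 0.00357) and 2.35 without replicate 3 (adjusted p 0.000257), all past the threshold, and by -0.639 with only the most 5′ TSS of each gene (adjusted p 0.394). GC was lower far from the TSS inside the class, averaging 36.6% ± 9.08 at 0 to 199 bp (SD, n = 100) and 30.1% ± 7.54 at 600 to 799 bp (SD, n = 99), where all TSSs averaged 43.8 and 45.2%.

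**Figure D3:**
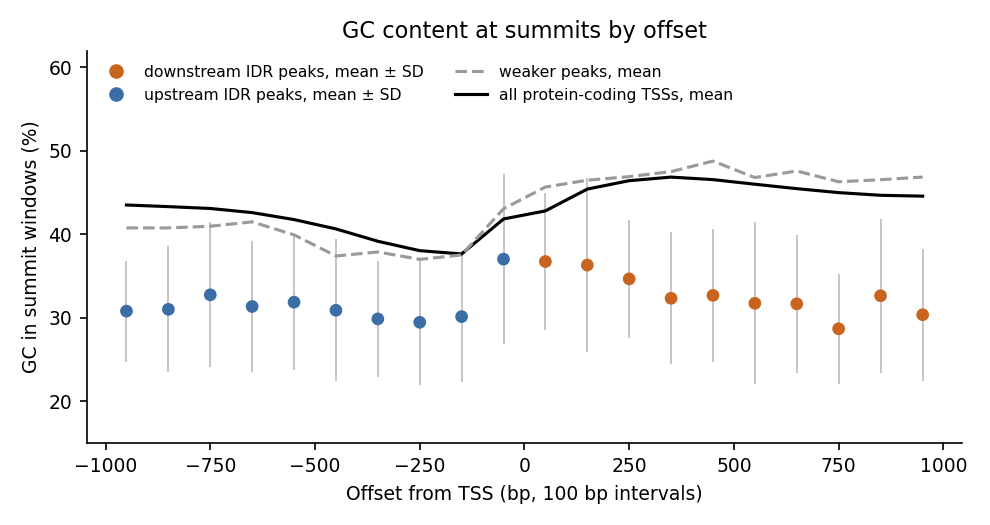
Mean GC of 101 bp windows at IDR summits by 100 bp offset interval (points, with the SD over peaks), with weaker peaks (dashed) and all protein-coding TSSs (solid). Downstream IDR summits (orange) average between 28.7 and 36.7%, below the 42.8 to 46.9% of all TSSs in those intervals, and upstream IDR summits (blue) between 29.5 and 37.0%.

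A and T were both frequent on the gene strand. In the 101 bp windows of the downstream peaks A made up 34.1% and T 33.3% of bases, a difference of 0.845 points (95% interval -0.229 to 1.92). In the profile along the gene, A was highest 20 bp before the summit, at 35.3%, and T was highest 40 bp after it, at 34.5%. Upstream peaks had their highest A share 60 bp before the summit, at 36.0%, and their highest T share at the summit, at 35.1%.

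**Figure D4:**
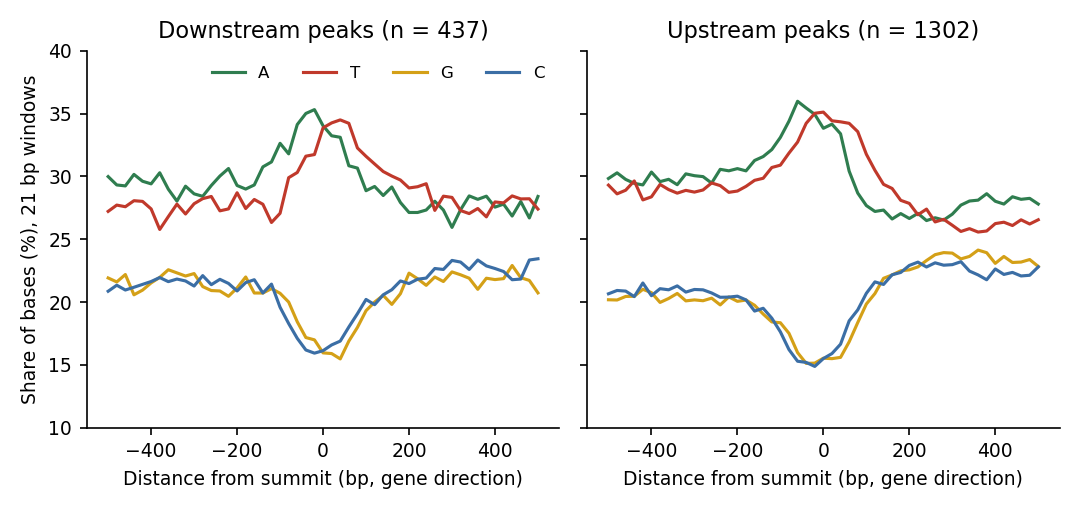
Share of each base in 21 bp windows by distance from the summit, along the direction of the gene, for 437 downstream peaks (left) and 1302 upstream peaks (right). In both panels A and T stand above G and C, and the gap is wider near the summit than in the flanks, with G at 15.5% and C at 15.9% at their lowest in downstream peaks.

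The sequence under the summits did not separate the downstream from the upstream class in any of 15 motifs searched (z tests over peaks, every adjusted p at least 0.820, smallest unadjusted p 0.102). The forkhead pattern was any of the words ATAAACA or GTAAACA or ATAAATA or GTAAATA or ACAAACA or GCAAACA or ACAAATA or GCAAATA on either strand, and some of these overlap in one stretch. It was found in 176 of the 437 downstream windows (40.3%) and in 37.2% of upstream windows, a difference of 3.10 points (95% interval -2.12 to 8.43). The share was 20.4% in weaker downstream peaks and 23.2% over windows of the same length along the genome, and the words are themselves A/T-rich. The strict forkhead word GTAAACA, which the pattern includes, was in 4.35% of downstream windows and 2.76% of upstream windows, a difference of 1.58 points (95% interval -0.281 to 4.05). It was in 2.92% of weaker downstream peaks and 1.89% of windows along the genome. The homeodomain word TAATTA was in 10.3% of downstream and 11.0% of upstream windows, and 6.47% along the genome. The GATA-factor words AGATAA or TGATAA were in 18.8% of downstream and 18.1% of upstream windows, and 11.4% along the genome. The other 11 differed between the classes by at most 1.05 points. Among them GCCAT, the word of Pho, was in 11.4% of downstream and 11.8% of upstream windows, against 19.7% along the genome. GAGAG, the word of GAGA factor, was in 8.01% of downstream and 8.53% of upstream windows, against 11.4% along the genome, and GACGC, a second forkhead word, in 3.43% of downstream and 3.92% of upstream windows, against 8.64%. A run of 7 A on the gene strand was in 6.86% of downstream and 7.91% of upstream windows, and a run of 7 T in 6.64% of downstream and 7.22% of upstream windows, against 4.46 and 4.45% along the genome. The remaining 6 were the E-box CAGCTG, the E-box CACGTG, the Zelda word CAGGTA, the repeat CACACACA, the DREF word TATCGATA and the M1BP word GGTCACACT. They were each in at most 3.43% of downstream and 2.84% of upstream windows, and in at most 4.24% along the genome. Within the downstream class the forkhead pattern was in 35 of 100 windows at 0 to 199 bp and in 51 of 102 at 800 to 1000 bp, given as a description.

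The promoters themselves differed in their core elements, short words read by the transcription machinery or by promoter-bound factors. The comparison used 384 TSSs with only a downstream peak and 1189 with only an upstream peak. The 2 sets were uneven in divergent promoters. Summits between close divergent starts were set aside, while members just past one start of such a pair were kept. Of the 437 members, 56 lay upstream of a gene on the opposite strand. GAGAG, the word of GAGA factor, was found on either strand within 100 bp of 33.6% of the downstream and 42.1% of the upstream TSSs, a difference of -8.46 points (95% interval -13.8 to -2.86, z test, adjusted p 0.0196 over 6 elements), against 25.3% of all TSSs. TCAGT, the initiator, was between 5 bp before and 3 bp after 12% of the downstream and 17.6% of the upstream TSSs (adjusted p 0.0265), against 10.6% of all TSSs. Elements of housekeeping promoters went the other way. The DREF word TATCGATA was at 5.47% of the downstream and 2.86% of the upstream TSSs (adjusted p 0.0265), against 6.45% of all, and the M1BP word GGTCACACT was at 5.99% of the downstream and 3.28% of the upstream TSSs (adjusted p 0.0265), against 4.44% of all. The TATA box, TATAAA between 40 and 20 bp before the TSS, was at 2.86% of the downstream and 4.12% of the upstream TSSs, against 6.80% of all. The downstream promoter element, AGACG or GGACG or AGTCG or GGTCG between 22 and 32 bp after the TSS, was at 8.59% of the downstream and 10.4% of the upstream TSSs, against 6.14% of all. Both missed the test, each with an adjusted p of 0.297. The downstream promoter element passed with a window of 500 bp (-6.27 points, adjusted p 0.0297) and with only the most 5′ TSS of each gene (-3.96 points, adjusted p 0.0217), where the TATA box passed too (-2.61 points, adjusted p 0.0303). None of the 6 elements passed once summits on the other side of another TSS were left out, where 276 downstream and 1034 upstream TSSs remained and GAGAG differed by -6.22 points (adjusted p 0.186), and GAGAG alone passed without replicate 2. The DREF word was higher downstream in each alternative run, but its call was lost with a window of 500 bp (adjusted p 0.111), among the stronger IDR peaks (adjusted p 0.127) and without replicate 2 (adjusted p 0.0908). The M1BP word was likewise higher throughout, and its call was lost with a window of 500 bp (adjusted p 0.472), with only the most 5′ TSS of each gene (adjusted p 0.0522), with TSSs of any biotype (adjusted p 0.160) and without replicate 2 (adjusted p 0.0863). The initiator lost its call in the stronger part (adjusted p 0.116) and without replicate 2 (adjusted p 0.0603).

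Signal, the peak strength in the unit of the authors' caller, was slightly lower downstream. Its median was 247 in downstream and 271 in upstream peaks, and members ran from 129 to 2576. As a percentile within the IDR set, the rank averaged 50.2 ± 29.1 in downstream peaks (SD, n = 437) and 54.7 ± 30.2 in upstream peaks (SD, n = 1302), a difference of -4.54 points (95% interval -7.72 to -1.35, z test, adjusted p 0.0104). The difference was 0.866 points with only the most 5′ TSS of each gene (adjusted p 0.603) and -3.51 points without summits on the other side of another TSS (adjusted p 0.0922), and -8.83 points with a window of 500 bp (adjusted p 0.000195). Within the class the median signal was 210 at 0 to 199 bp and 290 at 400 to 599 bp. Peak width averaged 309 bp ± 102 downstream and 317 bp ± 104 upstream (adjusted p 0.182). The width difference passed in the stronger part of the set (-30.5 bp, adjusted p 0.000274) and without replicate 2 (-12.4 bp, adjusted p 0.0294). The commonest width, exactly 390 bp, was that of 42.3% of downstream and 37.8% of upstream peaks.

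Most members lay near a strong summit of each replicate. The IDR threshold keeps peaks ranked alike in both replicates, so the selection favours high shares here and they are not separate support. A summit among the strongest of replicate 2, taken up to the number in the IDR set, lay within 100 bp of 349 members (79.9%), and one of replicate 3 within 100 bp of 388 (88.8%). Both held for 311 of 437 downstream peaks (71.2%) and for 77.3% of upstream peaks, a difference of -6.10 points (95% interval -11.0 to -1.42, z test, adjusted p 0.0151), and 11 members had neither. That difference turned to 2.34 points with only the most 5′ TSS of each gene (adjusted p 0.394) and was -3.57 points without summits on the other side of another TSS (adjusted p 0.192), while it was -13.0 points with a window of 500 bp (adjusted p 0.000195). In the full lists of 30000 peaks per replicate, 414 members had a summit within 100 bp in replicate 2, 422 in replicate 3 and 399 in both.

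**Figure D5:**
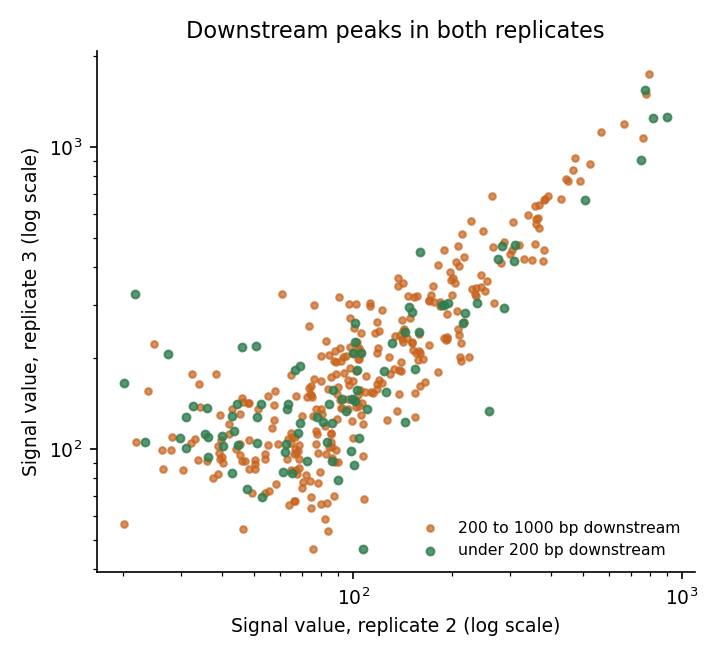
Signal of the 399 downstream peaks matched in both full replicate lists, replicate 2 against replicate 3 on log axes, with the peaks within 0 to 199 bp of the TSS in green and the others in orange. The strongest members, such as CG9663 at 793 in replicate 2 and 1742 in replicate 3, stand at the top right, and the scatter widens at low signal.

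The 20 strongest downstream peaks were nearest to TSSs of 19 genes of mixed function. CG9663 was first with an IDR signal of 2576, at 793 in replicate 2 and 1742 in replicate 3, and its second summit, 717 bp downstream in the same called interval of 663 bp, had 1427, at 527 in replicate 2 and 882 in replicate 3. CG9147 had 2309, at 771 in replicate 2 and 1546 in replicate 3. Next came ph-p at 2228, with 779 in replicate 2 and 1503 in replicate 3. These were high in both libraries, ranking 48, 55 and 51 in replicate 2 and 18, 29 and 32 in replicate 3.

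The other leaders came after these. tank had an IDR signal of 2157, CG8320 2073, LPCAT 1849, Adf1, which encodes a transcription factor, 1819, and GstE13, a glutathione transferase gene, 1654. Then came Dok, an adaptor of tyrosine kinases, at 1394, CG31612 at 1301, wde, a cofactor of a histone H3 lysine methyltransferase, at 1253, mub, an RNA-binding KH-domain protein, at 1226, and Ptp4E, a receptor tyrosine phosphatase, at 1223. CG9399, CG9921, Dhc64C, the heavy chain of cytoplasmic dynein, rudhira and Vti1b, a SNARE, lay between 1058 and 1166. From tank to Vti1b the signals ran between 381 and 905 in replicate 2 and between 667 and 1259 in replicate 3, and all 20 peaks lay near a strong summit of both. Of the 20 peaks, 14 lay in introns and 6 in a 5′ UTR. Genes were assigned by the nearest TSS alone. Besides CG9147, the summits of tank, CG8320, Adf1, CG9921, Dhc64C and Vti1b also lay upstream of a gene on the opposite strand.

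ph-p was bound on both sides of its start sites. Besides the member at 457 bp, it had a weaker member 47 bp downstream of another of its TSSs, with a signal of 166, at 100.3 in replicate 2 and 88.2 in replicate 3. An upstream peak 489 bp before yet another TSS of the gene had a signal of 3982 and was the seventh strongest of the IDR set, at 1624 in replicate 2 and 2412 in replicate 3. Its tandem copy ph-d had a member 146 bp downstream with a signal of 245, at 92.2 in replicate 2 and 146 in replicate 3. Since ph-p and ph-d are near-identical in places, how the authors' mapping shared reads between them is uncertain.

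A member gene could carry more than one peak. Trpm, which encodes a cation channel, had 3 members, at 166, 173 and 701 bp from its TSSs, with signals of 213, 697 and 373. The other 24 genes with several had a pair each, among them Trl, the gene of GAGA factor, at 141 and 607 bp with signals of 501 and 369, dlg1 at 443 and 652 bp with 342 and 305, Ada2b at 353 and 554 bp with 394 and 561, and eas at 362 and 939 bp with 481 and 567. Both Ada2b summits lay in the same called interval of 527 bp, and the dlg1 summit at 443 bp had no match in replicate 3. The rest of the pairs were in CG14478, CG15365, CG31650, CG34451, CG42258, CG4297, CG43389, CG7987, CG9663, Moe, RhoGAP18B, Tlk, Tsp96F, ced-6, loco, norpA, ogre, ph-p, ps and wun. Of the 411 genes, 112 (27.3%) also had an upstream peak, which is 9.89% of the 1133 genes with an upstream peak.

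Among genes with a peak on only one side, 299 downstream and 1021 upstream, 4 gene features were measured. The median gene length was 5404 bp in downstream and 5892 bp in upstream genes, against 2166 bp for all 13945 protein-coding genes, and the median longest first intron was 1479 bp in downstream and 1403 bp in upstream genes, against 76.0 bp for all. Only the first exon passed the test: its median was 386 bp in downstream and 447 bp in upstream genes, with a difference of -0.0763 on the log10 scale (95% interval -0.121 to -0.0317, z test, adjusted p 0.00320 over 4 features), and -0.0102 (adjusted p 0.850) with only the most 5′ TSS of each gene and -0.0499 (adjusted p 0.145) with a window of 500 bp. A longer first intron downstream missed it (0.128 on the log10 scale, 95% interval 0.00641 to 0.250, adjusted p 0.0782), and passed at 0.284 (adjusted p 0.000134) without summits on the other side of another TSS and at 0.165 (adjusted p 0.00903) with only the most 5′ TSS of each gene. The number of TSSs per gene differed by 0.00788 (adjusted p 0.926), and by 0.560 (adjusted p 6.27e-19) with only the most 5′ TSS of each gene, where it passed. That setting drops inner TSSs, so a peak just before an inner TSS can count as downstream of the first. It thereby favours genes with several TSSs in the downstream group, and no conclusion is drawn from that pass. Gene length differed by -0.0340 on the log10 scale (adjusted p 0.397), and passed with a window of 500 bp (-0.120, adjusted p 0.0257) and in the stronger part of the IDR set (-0.0974, adjusted p 0.0363). Genes with 1 TSS made up 41.5% of downstream and 47.8% of upstream genes, against 73.5% of all.

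Gene groups are described by counts only, since the lists were chosen with earlier results of these data known. Of all 13945 protein-coding genes, 2.95% had a downstream peak and 8.12% an upstream peak, and each list is read against these shares. Genes of chromatin insulators and pioneer factors had a downstream peak in 6 of 20 cases and an upstream peak in 3 of 20. They were Trl, grh, Dref, lolal, CTCF and BEAF-32. All 6 had a summit between 23 and 194 bp from the TSS. The strongest was Trl at 501, with 218 in replicate 2 and 282 in replicate 3, and grh, a pioneer factor of epithelia, followed at 310, with 106 in replicate 2 and 207 in replicate 3. Dref, the factor that reads TATCGATA, had 212, with 77.6 in replicate 2 and 127 in replicate 3. The Dref summit also lay 107 bp upstream of RpL13, which runs the other way. The peaks of lolal, at 193, and BEAF-32, at 140, had no match in replicate 3.

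Cell adhesion and septate junction genes had a downstream peak in 9 of 31 cases (29.0%) and an upstream peak in 5. rhea, which encodes talin and ties integrins to actin, had the strongest, at 594 bp with a signal of 587, at 252 in replicate 2 and 334 in replicate 3. Mcr, a septate junction protein, had 526 at 778 bp, with 200.0 in replicate 2 and 325 in replicate 3, and LanA, a laminin chain, 474 at 581 bp, with 156 in replicate 2 and 322 in replicate 3. The others were Gli, crb, dlg1, if, nrv2 and scrib, with signals between 131 and 342. No downstream summit of the 9 genes lay within 200 bp of its nearest TSS.

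EGF receptor pathway genes had a downstream peak in 6 of 21 cases (28.6%) and an upstream peak in 6. They span the pathway: rho and ru encode proteases that release the ligand, Raf and Dsor1 kinases of the cascade, and aop and pnt the repressor and activator that the cascade controls. Raf had the strongest, at 817 bp with a signal of 934, at 340.2 in replicate 2 and 594 in replicate 3. aop had 242 at 926 bp, with 92.6 in replicate 2 and 136 in replicate 3, and pnt 223 at 914 bp, with 38.2 in replicate 2 and 177 in replicate 3. All 6 summits lay between 483 and 926 bp.

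Several other signalling and structural lists had downstream shares above 2.95%, and most of these had as many or more genes with an upstream peak. Hippo pathway genes had a downstream peak in 4 of 18 cases (22.2%) and an upstream peak in 5, with Diap1, a caspase inhibitor and target of the pathway, at a downstream signal of 798, and Mer and mats below 400. Glial genes had a downstream peak in 4 of 16 cases and an upstream peak in 5; the 4 were loco and, also held by the lists above, Gli, pnt and nrv2. Cytoskeletal genes had a downstream peak in 6 of 37 cases (16.2%), led by Dhc64C, sqh and pnut, and an upstream peak in 8. RNA-binding and splicing genes had 7 of 34 (20.6%) downstream and 7 upstream, the downstream ones led by mub, Sxl, the sex-determination splicing factor, at 501, and pAbp, the poly(A)-binding protein. The pAbp peak had no match in replicate 2. Dpp pathway genes had 4 of 21 (19.0%) downstream, which were the receptors wit, put and tkv and the extracellular antagonist sog, with signals of 294 at most, and 2 upstream. Polycomb and trithorax genes had 6 of 29 (20.7%) downstream, led by ph-p, Trl and fs(1)h, and 3 upstream. Lists overlap, with Trl in 2 of them. Genes with only a downstream peak were longer and less often had 1 TSS than all genes, by the medians and shares given above, and the part of this in the counts was not tested.

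Ribosomal protein genes had a downstream peak in 4 of 92 cases (4.35%) and an upstream peak in 16. The 4 were RpL3, RpL30, RpL37A and RpS7, and their summits lay within 0 to 23 bp of the TSS. Signals were 249 at RpL3, 249 at RpL30, 160 at RpL37A and 140 at RpS7, which had no match in replicate 2, and each summit also lay upstream of a second TSS. No downstream peak was found for any of 73 mitochondrial ribosomal proteins, 48 proteasome genes, 52 Mediator and general transcription factor genes, 27 heat shock genes, 179 chemoreceptor genes, 140 cuticle genes, 85 cytochrome P450 genes, 16 Hox and cofactor genes or 16 gap and pair rule genes. For the shorter of these lists, none is near the 2.95% of all genes, and no test was made. Upstream peaks were found for 6 of the cuticle genes, 4 Mediator and general factor genes and 4 heat shock genes. They were also found for 3 cytochrome P450 genes, 2 Hox and cofactor genes and 1 proteasome gene, and for no gene of the others. In the other 14 of the 33 lists 1 or 2 genes had a downstream peak. The forkhead family was among them with 1 of 17, CHES-1-like, 231 bp downstream with a signal of 771.

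The window ends cut through a continuous run of summits. Just inside at the TSS were RpL30 at 0 bp with a signal of 249, and Nacalpha and CG2200 at 3 bp with 278 and 136, while just outside was Cbs, 2 bp upstream, with 187. At the far end crb and atos were at 1000 bp with signals of 338 and 136, and ck, just outside at 1003 bp, had 588. Across the chromosome arms the class took 8.90% of IDR peaks on X, 6.86% on 2L, 7.32% on 2R, 6.71% on 3L and 8.23% on 3R, and 1 of 17 on chromosome 4.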

How the data were processed

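The deposited files are narrowPeak lists in dm6 coordinates, per the labels: one for each replicate, one for the whole series taken as the pooled list (30000 peaks each) and the optimal IDR set. The signal value of each peak is the authors' own, of unstated scale, so it was used as a value or a rank within one list; the deposited −log10 q-values were not used. Not given in the sources used here were the aligner, the caller and its IDR threshold, and the depth is unknown, so precision rests on the number of peaks. Members and lists were chosen with earlier results of these data known.

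Summits were set against 19607 protein-coding TSSs of Ensembl release 115 (BDGP6) on 6 arms, and bases came from the Release 6 assembly of RefSeq, with Python 3.11.15, numpy 2.4.6, pandas 2.3.3 and scipy 1.17.1. Differences between classes were tested with two-sided large-sample z tests over peaks, with 95% intervals (Newcombe for shares) and Benjamini-Hochberg adjustment within each family, at a threshold of 0.05. The tests and the class rule were checked on simulated data. A replicate peak was matched to a member when their summits were within 100 bp. Named genes are those of the 20 strongest members, genes with several, up to 3 leaders of each list with at least 3, coding-sequence summits and members at the window ends; further members of short lists, Hr78, CHES-1-like, and the example genes were named after their values were seen. The gene of 1 of the 20 strongest members is not reported here. Of 527 symbols written out in the lists, 41 matched no gene. The location tests and the GC at the same offset were added after the values were seen. 3 IDR summits outside their interval were kept, none of them a member.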

Additional observations from a re-analysis of the deposited data

How the results depend on the processing

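The lower downstream share held its direction and call in all tested alternatives, between -9.28 and -3.65 percentage points, and was -3.91 points against all bases, without a test. The intronic excess held in all 8 alternatives, between 11.8 and 48.3 points; the coding deficit was -1.92 points and not called under 35% GC. With the most 5′ TSS per gene the signal rank difference was 0.866, GC 1.01, the GC dip -0.639, both-replicate sharing 2.34 and the number of gene features called 2. Without summits on the other side of another TSS rank was -3.51, GC 1.03, sharing -3.57, core elements called 0, gene features called 2 and log10 gene length 0.0343. In the stronger part of the set width was -30.5 bp and called, sharing -1.24, core elements called 2 and gene features called 2. Sharing was -3.54 with TSSs of any biotype and -4.19 within 50 bp. The GC dip was called at 3.38 with a window of 500 bp, 1.42 with flanks at 300 bp and 1.30 without peaks that share an interval; GC relative to all TSSs at the same offset was -3.90. With 1 replicate left out, width ranged between -12.4 bp, called without replicate 2, and 3.45 bp, the GC dip between 1.88 and 2.35, both called, and core elements called between 1 and 4, with 1 without replicate 2. The count of motifs called stayed at 0. Differences not called as reported that changed sign, and were uncalled where they did, were the forkhead pattern (-0.687 at 500 bp, -1.15 in the stronger part, and between -2.19 and 2.23 with 1 replicate left out), GATA (-2.39 at 500 bp, -1.22 with the most 5′ TSS, -0.447 in windows of 100 bp, and -1.67 and -0.363 with 1 replicate left out), TAATTA (0.467 with any biotype, 1.08 without summits on the other side of another TSS, 1.18 in windows of 25 bp, 2.75 at peaks above the median GC), TATA (between -1.69 and 0.494 with 1 replicate left out), the first intron (-0.133 at 500 bp) and the number of TSSs (-0.0541 in the stronger part, and -0.0370 and -0.0412 with 1 replicate left out). The cause was not tested. No paired analysis was possible because there is 1 group. The lists give no reads, so depth limits are unknown.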
